A study of Mus musculus with 75 samples.

Results

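The beta-adrenergic receptors and the enzymes and regulators of lipolysis are described here by 7 genes: the receptors Adrb1 and Adrb3, the lipases Pnpla2, Lipe and Mgll, the lipase co-activator Abhd5 and the lipase inhibitor G0s2. They were taken by symbol from the gene tables, and all 7 were found among the 21625 genes listed in both tables. The study collected RNA-seq libraries from mice in which mitochondrial and nuclear genomes of 2 strains had been exchanged, to ask whether the mitochondrial DNA alters the response of fat to diet. The exchange lines were C57n:C3Hmt (nucleus of C57BL6/J, mitochondria of C3H/HeN) and C3Hn:C57mt (the reverse), and the wild types were C57n:C57mt and C3Hn:C3Hmt. Mice were weaned on chow and then, at 6 weeks of age, changed to a high-fat diet (HFD) or kept on chow until tissue was taken at 12 to 13 weeks. The 75 libraries came from 43 animals: 29 from epididymal fat (eWAT), 30 from inguinal fat (iWAT), each on both diets, and 16 from gastrocnemius muscle on chow, in 20 groups of 3 or 4 animals.

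Lipolysis is the stepwise hydrolysis of stored triglyceride to fatty acids and glycerol. Catecholamines bind beta-adrenergic receptors on the adipocyte, the stimulatory G protein raises cyclic AMP, and protein kinase A phosphorylates perilipin and hormone-sensitive lipase, which frees the co-activator Abhd5 to act on adipose triglyceride lipase. In rodent fat the beta-3 receptor is the form best known for this signal, and sympathetic tone through it also drives thermogenic genes. Levels below are transcript levels in whole tissue, where fewer adipocytes and less RNA per adipocyte cannot be told apart. They say nothing of enzyme phosphorylation or activity.

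Libraries held 15.7 M to 31.5 M counts (M, mega). All chow libraries were sequenced in 1 run and all HFD libraries in the other 3 runs of 4, so diet and run cannot be told apart, and on chow the lane follows the nuclear genome apart from 1 eWAT library. The median G+C content of aligned reads was 48.8% on HFD against 49.4% on chow in eWAT, and 48.2% on HFD against 49.0% on chow in iWAT. Of the eWAT libraries, 6 stood apart by markers of the epithelium of the epididymis (Crisp1, Krt18, Krt8, Tacstd1 and Prom1, summing to over 500 CPM): C3Hn:C3Hmt replicate 1 on HFD at 599.7 CPM, and 5 chow libraries at 1331 to 6671 CPM, with the other 23 at 3.10 to 95.2 CPM. The 5 were C57n:C3Hmt replicates 1 and 4, C3Hn:C57mt replicates 2 and 4 and C57n:C57mt replicate 3. In iWAT, C3Hn:C3Hmt replicate 3 on HFD had lymphocyte markers summing to 1573 CPM, the highest of the 75 libraries, and the lowest adipocyte marker sum of that depot, 6972 CPM. Adipocyte markers were high in fat, with medians of 15552 CPM on HFD and 16717 CPM on chow in eWAT and 18017 CPM on HFD and 19475 CPM on chow in iWAT, against 484 CPM in muscle.

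On the mm9 build the genes lie on 6 chromosomes. Adrb1, the beta-1 receptor, is a gene of 1 exon at chr19:56796862-56799352 on the plus strand, and Adrb3, the beta-3 receptor, lies at chr8:28336248-28340060 on the minus strand. Pnpla2 (chr7:148641097-148646642, plus) encodes adipose triglyceride lipase, which performs the first hydrolysis, and Lipe (chr7:26164546-26183729, minus) encodes hormone-sensitive lipase, which acts mainly on the resulting diacylglycerol. Mgll (chr6:88674406-88778354, plus) encodes monoglyceride lipase, which completes the pathway and also degrades the endocannabinoid 2-arachidonoylglycerol. Abhd5 (chr9:122260726-122290642, plus) and G0s2 (chr1:195098355-195099382, minus) act on Pnpla2 in opposite directions. Exons of Lipe share 264 bases with 4732471J01Rik and those of Mgll share 90 bases with Gm16628, both on the opposite strand. Whether the counting used strand is not given in the sources used here, so these shares are uncertain.

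The promoter windows of the 3 lipases are shown because these genes varied together across fat libraries, and Mgll was called lower with the C57 nucleus on chow. The windows run from 250 bases before to 50 bases after a start site in RefSeq annotation of GRCm38.p6, a later build than the mm9 of the counts. Of the 7 genes, 6 matched a window there, and Adrb3 has none printed. Capitals mark exact matches, on either strand, to the GC box (GGGCGG) and the E-box (CACGTG). Lipe and Mgll each have windows at 2 annotated start sites, and the gene counts do not say which start was used.
Pnpla2, chr7:141454938-141455237, plus: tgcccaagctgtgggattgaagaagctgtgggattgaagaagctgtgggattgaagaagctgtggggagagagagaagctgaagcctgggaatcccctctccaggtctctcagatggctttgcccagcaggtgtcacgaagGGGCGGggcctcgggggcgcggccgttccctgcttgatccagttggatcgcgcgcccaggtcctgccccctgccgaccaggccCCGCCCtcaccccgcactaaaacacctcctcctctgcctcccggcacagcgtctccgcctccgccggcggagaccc
Lipe start 1, chr7:25395938-25396237, minus: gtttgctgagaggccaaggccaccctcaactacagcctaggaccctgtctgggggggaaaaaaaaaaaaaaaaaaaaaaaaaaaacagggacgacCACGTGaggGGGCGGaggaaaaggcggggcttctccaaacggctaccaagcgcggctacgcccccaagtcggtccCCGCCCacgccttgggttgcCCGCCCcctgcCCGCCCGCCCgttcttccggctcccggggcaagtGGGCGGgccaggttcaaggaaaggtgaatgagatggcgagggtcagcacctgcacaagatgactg
Lipe start 2, chr7:25390063-25390362, minus: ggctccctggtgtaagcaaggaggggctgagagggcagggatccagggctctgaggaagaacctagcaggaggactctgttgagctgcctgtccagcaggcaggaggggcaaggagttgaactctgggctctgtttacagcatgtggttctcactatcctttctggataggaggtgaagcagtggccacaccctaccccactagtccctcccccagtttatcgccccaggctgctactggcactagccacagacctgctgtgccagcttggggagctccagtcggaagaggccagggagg
Mgll start 1, chr6:88724162-88724461, plus: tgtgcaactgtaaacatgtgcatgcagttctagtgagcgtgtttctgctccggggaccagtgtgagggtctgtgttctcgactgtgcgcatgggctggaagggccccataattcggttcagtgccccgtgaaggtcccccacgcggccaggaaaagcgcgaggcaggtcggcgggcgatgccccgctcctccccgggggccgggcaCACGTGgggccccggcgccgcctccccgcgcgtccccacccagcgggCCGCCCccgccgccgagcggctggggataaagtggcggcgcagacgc
Mgll start 2, chr6:88724454-88724753, plus: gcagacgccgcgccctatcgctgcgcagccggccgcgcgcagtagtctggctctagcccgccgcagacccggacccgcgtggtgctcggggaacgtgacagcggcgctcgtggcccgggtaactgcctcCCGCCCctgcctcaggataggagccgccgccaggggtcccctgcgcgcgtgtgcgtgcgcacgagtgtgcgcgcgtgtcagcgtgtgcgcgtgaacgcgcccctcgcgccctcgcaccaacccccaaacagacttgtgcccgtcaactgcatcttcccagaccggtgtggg
The Pnpla2 window holds 2 GC boxes and no E-box. The window at Lipe start 1 holds 6 GC boxes, of which 2 overlap, and 1 E-box 155 bases before the start, while that at start 2 holds neither motif. The window at Mgll start 1 holds 1 E-box 44 bases before the start and 1 GC box, and that at start 2 holds 1 GC box and no E-box. Of 32851 promoter windows of the same length, 35.7% hold a GC box and 7.15% an E-box. G+C content was 65.3% in the Pnpla2 window, 61.0% at Lipe start 1 and 70.0% at Mgll start 1, against a median of 52.7% over all windows. The 8-base cyclic AMP response element (TGACGTCA), found in 1.79% of windows, matched none of the 8 windows of the 6 genes. Its core (TGACG, either strand), found in 20.8% of windows, matched once in the window at Mgll start 2 and once in each of the windows of Adrb1, Abhd5 and G0s2. These matches describe letters in the window and are not binding sites.

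The 7 genes spanned a wide range of levels in fat. To compare genes, levels were divided by exon length (CPM, counts relative to the library total scaled to 1 M, per kilobase of annotated exon). Pnpla2 had the highest level in eWAT, 381 ± 111 CPM per kilobase on HFD (SD, n = 14) and 576 ± 300 on chow (SD, n = 15). In iWAT it stood at 477 ± 146 CPM per kilobase on HFD (n = 14) and 748 ± 150.2 on chow (n = 16). Mgll (303 to 339 CPM per kilobase in the 4 depot and diet sets) and Lipe (231 to 365) came next, and their order reversed in iWAT on chow, where they differed by less than their SD. G0s2 (117 to 161 CPM per kilobase), Adrb3 (51.7 to 142) and Abhd5 (37.5 to 48.7) followed. G0s2 and Adrb3 changed places in eWAT on chow, again within their SD. Adrb1 was last by far, at 0.178 to 0.571 CPM per kilobase. The order was the same when the longest transcript replaced the union of exons.

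**Figure D1:**
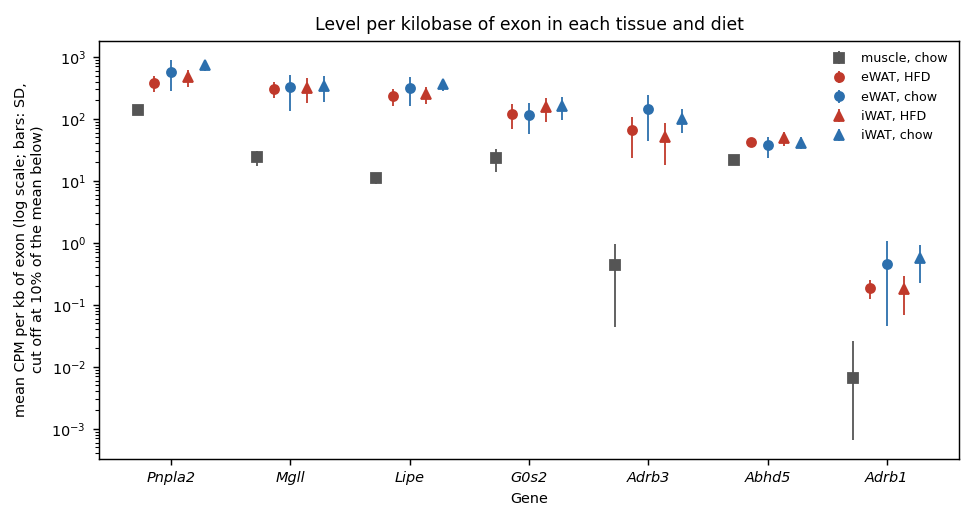
Mean level of each gene in CPM per kilobase of exon (log axis) in muscle on chow and in eWAT and iWAT on each diet; bars are SD over libraries, with the lower bar stopped at 10% of the mean. Pnpla2 is highest in every set and Adrb1 lowest, and muscle lies below fat for each gene.

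In CPM (library sizes scaled by TMM), Adrb1 ranged from 0.196 to 0.708 in eWAT on HFD (median 0.461) and from 0.0612 to 5.53 on chow (median 0.688). These levels rest on few counts: 5 to 17 per library on HFD and 2 to 156 on chow. In iWAT Adrb1 ranged from 0.0482 to 1.10 CPM on HFD and from 0.437 to 4.19 CPM on chow, or 1 to 28 and 13 to 107 counts. Both diets overlapped in each depot. Adrb3 was read far more deeply, with 474 to 8163 counts per eWAT library on HFD and 1602 to 23050 on chow.

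**Figure D2:**
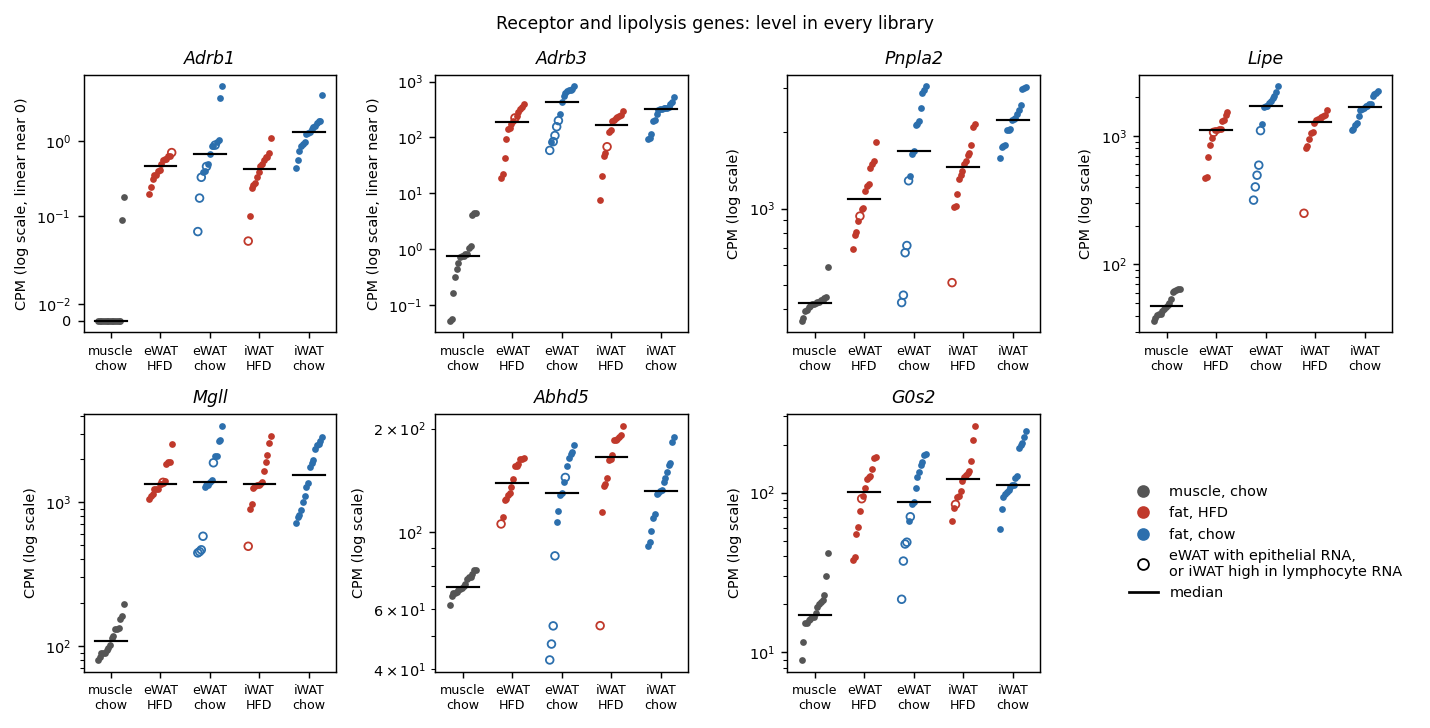
CPM of each of the 7 genes in every library (points, log axes, linear near 0 for the receptors), in muscle on chow and in each fat depot on HFD and on chow. Adrb3 on HFD reaches 18.8 CPM in eWAT and 7.46 CPM in iWAT at its lowest, below every chow library of the same depot. The muscle libraries hold 0.0747 to 4.48 CPM.

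All 7 genes were lower in muscle than in either depot on chow, where 81.8% of 18498 genes tested were called between muscle and eWAT and 79.9% between muscle and iWAT. A call means a Benjamini-Hochberg adjusted p under 0.05 over all genes tested, in edgeR's quasi-likelihood test. Abhd5 differed least: 61.7, 69.6 and 77.9 CPM in muscle (lowest, median, highest) against 42.6, 130.2 and 179 in eWAT and 91.3, 132 and 189 in iWAT. Its log2 fold change was -0.81 ± 0.14 (SE, adjusted p = 8.27e-07) for muscle minus eWAT and -0.92 ± 0.14 (adjusted p = 3.06e-08) for muscle minus iWAT. The eWAT range of Abhd5 overlapped that of muscle through its epithelial libraries, and the iWAT range did not. Pnpla2 was the best kept lipase in muscle, with 361 to 589.6 CPM against 1591 to 3034 CPM in iWAT, a log2 fold change of -2.39 ± 0.18 (edgeR adjusted p = 1.66e-18). Lipe had 36.5 to 64.6 CPM in muscle against 1118 to 2230 CPM in iWAT, and its log2 fold change was -5.05 ± 0.21 (edgeR adjusted p = 5.36e-30).

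Against eWAT the muscle values of the same fit were -2.02 ± 0.18 for Pnpla2, -2.34 ± 0.22 for G0s2, -3.72 ± 0.19 for Mgll and -4.86 ± 0.21 for Lipe on the log2 scale. G0s2 held 8.96 to 41.8 CPM in muscle and 21.5 to 175 CPM in eWAT, overlapping in the libraries with epithelial RNA. Mgll held 79.9 to 195 CPM in muscle and 444 to 3410 CPM in eWAT, with no overlap. The receptors were near the limit of detection in muscle. Adrb3 had 1 to 52 counts per muscle library, and its log2 fold change was -8.51 ± 0.42 against eWAT and -8.13 ± 0.41 against iWAT. Adrb1 had 3 counts in all over the 16 muscle libraries, 14 of which held none, so its fold depends on the constant added to counts and is not given. The adipocyte marker sums were lower in muscle too, with medians given above, and their part in these differences was not tested.

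Per kilobase, the muscle order was Pnpla2 (141 ± 16.6 CPM per kilobase), Mgll (23.9 ± 6.75), G0s2 (23.0 ± 9.08), Abhd5 (21.6 ± 1.43), Lipe (11.1 ± 2.23), Adrb3 (0.445 ± 0.529) and Adrb1 (0.0067 ± 0.0197), with SD over 16 libraries. Mgll, G0s2 and Abhd5 differed by less than their SD. Lipe thus stood below Abhd5 in muscle and far above it in fat.

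Between the depots none of the 7 genes was called, on a background of 35.9% of genes on chow and 26.8% on HFD. On chow 2 members had an unadjusted p under 0.05 in edgeR, as had 43.8% of genes, and on HFD 0, with 37.3% of genes. On chow Adrb3 had 58.6, 435 and 824 CPM in eWAT (lowest, median, highest) against 94.0, 326 and 535 CPM in iWAT. Adrb3 stood at 0.38 ± 0.29 (edgeR adjusted p = 0.331), and without the 6 epithelial libraries it was 0.78 ± 0.29 (edgeR adjusted p = 0.0301). G0s2 tended the other way, with a median of 88.0 CPM in eWAT and 112 CPM in iWAT on chow, a log2 fold change of -0.48 ± 0.21 (edgeR adjusted p = 0.0695). Pnpla2 had a log2 fold change of -0.37 ± 0.17 (edgeR adjusted p = 0.0938) for the same pair. No member was called for a difference in diet response between depots, where 1.58% of genes were. For Adrb3 the depot difference in response was -0.0006 ± 0.44 on the log2 scale, and for Adrb1 it was 0.67 ± 0.51 (edgeR adjusted p = 0.543).

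HFD feeding went with lower receptor transcripts in both depots. Pnpla2 and Lipe were called lower in iWAT, and had values of like size in eWAT that were not called. Their depot difference in response was 0.04 ± 0.25 for Pnpla2 and 0.006 ± 0.27 for Lipe on the log2 scale. In eWAT 2 of the 7 genes were called, both lower, on a background of 41.3% of 17687 genes (22.9% lower, 18.5% higher), and in iWAT 4 of 7, all lower, on 37.6% of 16884 genes (16.2% lower, 21.4% higher). The eWAT share of members is thus near or below the background. The median log2 fold change of the 7 genes was -0.52 in eWAT and -0.51 in iWAT, beside medians over all genes of -0.10 and 0.01. An unadjusted p under 0.05 was seen for 4 members in eWAT, where 50.4% of all genes had one, and for 5 in iWAT, where 46.3% did.

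Adrb3 had 18.8, 185 and 400.3 CPM in eWAT on HFD (lowest, median, highest) against 58.6, 435 and 824 CPM on chow. In iWAT it had 7.46, 164 and 293 CPM on HFD against 94.0, 326 and 535 CPM on chow. The ranges overlapped in each depot. The log2 fold change, as the mean of 4 genotypes, was -1.37 ± 0.30 in eWAT (SE, edgeR adjusted p = 0.00128) and -1.35 ± 0.26 in iWAT (edgeR adjusted p = 0.000226). Adrb3 was called without any single library of the 29 in eWAT and of the 30 in iWAT. After the trend of each library on gene G+C content and length was removed, it was -1.16 ± 0.31 in eWAT (edgeR adjusted p = 0.0076) and -1.07 ± 0.26 in iWAT (edgeR adjusted p = 0.0049).

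Adrb1, with the CPM ranges given above, stood at -0.96 ± 0.36 on the log2 scale in eWAT (edgeR adjusted p = 0.0356) and -1.61 ± 0.35 in iWAT (edgeR adjusted p = 0.000876). In iWAT its median was 0.43 CPM on HFD and 1.32 CPM on chow, and the highest HFD library (C57n:C3Hmt replicate 2, 1.10 CPM) lay inside the chow range. The eWAT call of Adrb1 was held in 19 of 29 refits that each left out 1 library. It was lost without 7 chow libraries (C57n:C3Hmt replicates 2 and 3, C57n:C57mt replicate 2, C3Hn:C57mt replicates 3 and 4, C3Hn:C3Hmt replicates 1 and 3) and without 3 HFD libraries (C57n:C3Hmt replicate 3, C57n:C57mt replicate 1, C3Hn:C57mt replicate 2), at log2 values of -0.81 to -0.93 and adjusted p up to 0.083. With the G+C and length trend removed Adrb1 stood at -0.61 ± 0.37 in eWAT (edgeR adjusted p = 0.20) and at -1.13 ± 0.35 in iWAT (edgeR adjusted p = 0.024).

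Pnpla2 had 692, 1092 and 1835 CPM in eWAT on HFD against 426, 1695 and 3041 CPM on chow (lowest, median, highest). In iWAT it had 510.5, 1456 and 2166 CPM on HFD against 1591, 2239 and 3034 CPM on chow. The iWAT ranges overlapped, but most HFD libraries lay below the lowest chow library. Pnpla2 stood at -0.63 ± 0.14 in iWAT (edgeR adjusted p = 0.00103) and -0.61 ± 0.25 in eWAT (edgeR adjusted p = 0.052). Lipe had 249.7, 1283 and 1594 CPM in iWAT on HFD against 1118, 1667 and 2230 CPM on chow, and its log2 fold change there was -0.51 ± 0.16 (edgeR adjusted p = 0.0181). In eWAT Lipe had 473, 1113 and 1541 CPM on HFD against 316, 1703 and 2428 CPM on chow, with -0.52 ± 0.24 (edgeR adjusted p = 0.0886).

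The iWAT calls of Pnpla2 and Lipe were lost when the G+C and length trend was removed, at -0.30 ± 0.14 (edgeR adjusted p = 0.13) and -0.29 ± 0.16 (edgeR adjusted p = 0.18). They held in all 30 refits that left out 1 iWAT library. The lowest HFD value of both genes was the library with lymphocyte RNA, and with the lymphocyte markers as a covariate Pnpla2 stood at -0.81 ± 0.14 (edgeR adjusted p = 5.1e-05) and Lipe at -0.75 ± 0.15 (edgeR adjusted p = 3.0e-04).

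The Lipe and Pnpla2 levels of the 5 epithelial chow libraries lay below those of the other 10 in eWAT. Pnpla2 was called in eWAT (-0.65 to -0.68) when 1 of 5 libraries was left out: C3Hn:C57mt chow replicate 2, C57n:C3Hmt chow replicates 1 and 4, C57n:C57mt chow replicate 3 or C57n:C57mt HFD replicate 2. Lipe was called (-0.59 to -0.60) without C3Hn:C57mt chow replicate 2, C57n:C3Hmt chow replicate 1 or C57n:C57mt chow replicate 3. Lipe had 316 to 1098 CPM in the 5 such chow libraries and 1238 to 2428 CPM in the other 10, and Pnpla2 had 426 to 1289 CPM in the 5 and 1350.4 to 3041 CPM in the 10. Mgll overlapped, with 443.9 to 1879 CPM in the 5 and 1268 to 3410 CPM in the 10. The epithelial HFD library lay within the range of the other 13 for Lipe (1063 CPM, others 473 to 1541 CPM), Pnpla2 and Mgll. Adipocyte markers summed to 3262 to 14612 CPM in those 5 and to 15783 to 30800 CPM in the 10. Without the 6 libraries, 6 of the 7 genes were called lower on HFD in eWAT, on a background of 43.6% of 16662 genes. Pnpla2 then had -0.96 ± 0.14 (edgeR adjusted p = 4.2e-05), Lipe -0.91 ± 0.11 (edgeR adjusted p = 5.3e-06), Mgll -0.34 ± 0.10 (edgeR adjusted p = 0.011) and G0s2 -0.41 ± 0.16 (edgeR adjusted p = 0.04). Adrb3 had -1.81 ± 0.23 and Adrb1 -1.29 ± 0.33 in that fit. With adipocyte markers as a covariate over all 29 libraries, Pnpla2 (-0.45 ± 0.08) and Lipe (-0.34 ± 0.07) were likewise called lower in eWAT, at edgeR adjusted p of 0.00014 and 0.00073.

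Mgll, Abhd5 and G0s2 were not called for diet in either depot. Mgll had 1052, 1332 and 2554 CPM in eWAT on HFD against 444, 1381 and 3410 CPM on chow, and a log2 fold change of -0.04 ± 0.21 (edgeR adjusted p = 0.926). In iWAT the value of Mgll was 0.08 ± 0.17 (edgeR adjusted p = 0.743). Abhd5, the co-activator, had 53.6, 165 and 204 CPM in iWAT on HFD against 91.3, 132 and 189 CPM on chow. Its log2 fold change was 0.28 ± 0.13 in iWAT (edgeR adjusted p = 0.10) and 0.22 ± 0.19 in eWAT (edgeR adjusted p = 0.351). Abhd5 was called higher in iWAT in 1 of 30 refits, without the library with lymphocyte RNA (0.34), and with the HFD run as a covariate (0.37 ± 0.10, edgeR adjusted p = 0.004). With the adipocyte markers as a covariate Abhd5 was called higher in eWAT (0.30 ± 0.09, edgeR adjusted p = 0.0133) and in iWAT (0.37 ± 0.07, edgeR adjusted p = 6.1e-05), and Mgll in iWAT (0.18 ± 0.07, edgeR adjusted p = 0.045). G0s2 had log2 fold changes of -0.05 ± 0.25 in eWAT (edgeR adjusted p = 0.912) and -0.12 ± 0.19 in iWAT (edgeR adjusted p = 0.645), with broad overlap of the ranges.

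**Figure D3:**
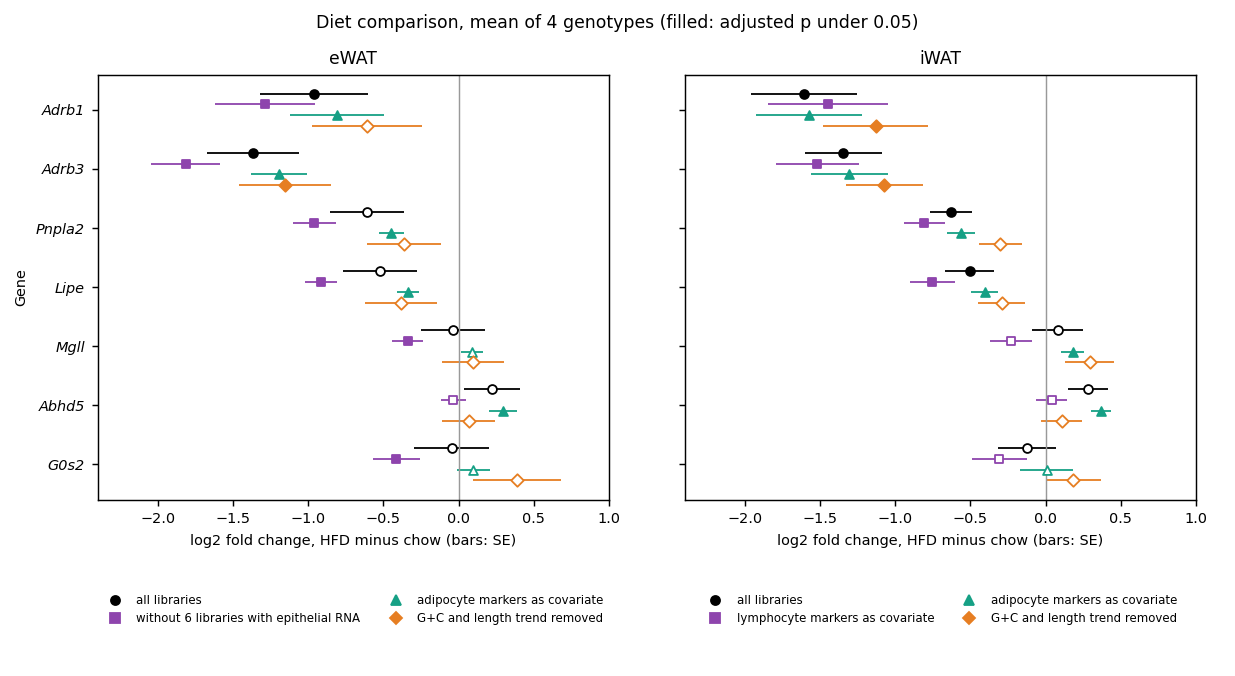
Log2 fold change, averaged over the 4 genotypes for HFD over chow, of each gene in eWAT and iWAT (points, with SE bars), over all libraries and under the 3 alternatives in each legend; filled points passed an adjusted p of 0.05. Adrb3 is filled in every setting drawn, while Pnpla2 and Lipe depend on the setting.

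Macrophage markers, 6 of 6 genes, were higher on HFD in both depots, with median sums of 751 CPM on HFD and 191 CPM on chow in eWAT and of 334 CPM on HFD and 233 CPM on chow in iWAT. Of the 5 adipocyte markers 0 were called in either depot by edgeR, with 0 in eWAT and 1 in iWAT at an unadjusted p under 0.05. Ucp1, the thermogenic uncoupling protein, was lower on HFD, at -4.15 ± 1.31 in eWAT (edgeR adjusted p = 0.0147) and -3.30 ± 0.71 in iWAT (edgeR adjusted p = 0.000782). No fit took macrophage markers or Ucp1 as a covariate, and their part in the members' values was not tested.

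Within single genotypes the fall of Adrb3 on HFD was called in C3Hn:C57mt. The share of genes called in eWAT was 7.21% in C57n:C3Hmt, 17% in C57n:C57mt, 11.3% in C3Hn:C57mt and 1.67% in C3Hn:C3Hmt, and in iWAT 16.5%, 16.7%, 7.71% and 4.88%. The difference between the responses of Adrb3 in C3Hn:C57mt and C3Hn:C3Hmt was not called (-0.31 ± 0.86 in eWAT and -1.17 ± 0.73 in iWAT). In eWAT of that line Adrb3 had 43.3, 22.1 and 18.8 CPM on HFD against 81.7, 58.6, 262.9 and 84.0 CPM on chow, with no overlap. The log2 fold change was -2.07 ± 0.65 (edgeR adjusted p = 0.0417), where 11.3% of genes were called. This call was lost without chow replicate 3 of that line, the 262.9 CPM library (-1.37, adjusted p = 0.157). It was also lost without HFD replicates 2 (-1.92, adjusted p = 0.154) and 3 (-1.84, adjusted p = 0.191) of the line, and, at -2.07 with adjusted p = 0.0512, without C3Hn:C3Hmt chow replicate 3 or C57n:C3Hmt HFD replicate 2. In iWAT of C3Hn:C57mt, Adrb3 had 7.46, 20.5 and 46.6 CPM on HFD against 197, 262, 117 and 94.0 CPM on chow, again with no overlap. Its value was -2.69 ± 0.57 (edgeR adjusted p = 0.00516, background 7.71%), and it was called in all 30 refits without 1 library.

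The other 3 genotypes had log2 fold changes of Adrb3 of -1.76 ± 0.60 (C3Hn:C3Hmt), -1.10 ± 0.56 (C57n:C57mt) and -0.54 ± 0.61 (C57n:C3Hmt) in eWAT. In iWAT they had -1.51 ± 0.54, -0.87 ± 0.48 and -0.32 ± 0.48, in that order, and none of these was called. Adrb3 in C3Hn:C3Hmt had 223, 141, 94.4 and 238 CPM on HFD against 680, 435 and 693 CPM on chow in eWAT, without overlap. Adrb3 in C57n:C3Hmt had 400.3, 347 and 172 CPM on HFD against 108, 824, 699 and 155 CPM on chow, where the low chow values were the 2 epithelial libraries. For Adrb3 the groups lay wholly apart in both C3Hn lines in eWAT and overlapped in C57n:C57mt and C57n:C3Hmt. Replicate 3 of C57n:C57mt on chow was also an epithelial library. Adrb3 had 58.6 to 200 CPM in the 5 epithelial chow libraries and 81.7 to 824 CPM in the other 10. The part of epithelial RNA in the overlap of the C57n lines was not tested.

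Pnpla2 was called for diet in iWAT of C3Hn:C57mt. It had 1011, 1021 and 1147 CPM on HFD against 2230.1, 2248, 2448 and 1591 CPM on chow, with no overlap, a log2 fold change of -0.94 ± 0.29 (edgeR adjusted p = 0.0495). That p lies at the threshold, and the call held in 12 of 30 refits, with log2 values from -1.05 to -0.88. In C3Hn:C3Hmt the Pnpla2 value was as large, -0.94 ± 0.29 (edgeR adjusted p = 0.0621). The C57n lines had -0.28 ± 0.27 (C57n:C57mt) and -0.35 ± 0.27 (C57n:C3Hmt) for Pnpla2 in iWAT. Adrb1 in C3Hn:C3Hmt eWAT had 0.708, 0.579, 0.359 and 0.504 CPM on HFD against 5.53, 0.495 and 3.88 CPM on chow, a log2 fold change of -2.57 ± 0.72 (edgeR adjusted p = 0.0659). Of the 3 chow libraries 2 lay above 3 CPM of Adrb1, and the third lay inside the HFD range.

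The response to diet was set against the nuclear genome directly. In eWAT 0 genes were called for the diet by nucleus difference, members included, and without the 6 epithelial libraries 0.006% of genes and 0 members. In iWAT 0.717% of genes were called and 0 of 7 members by edgeR, with 5 members at an unadjusted p under 0.05, as had 27.8% of all genes. All 7 members had positive values in both depots, meaning that the C57n response lay above the C3Hn response. The median over all genes was -0.09 in eWAT and 0.0056 in iWAT, and the share of all genes with a positive value was not counted. The 7 signs are not independent, since the lipase genes varied together and with the adipocyte markers within groups, as given below. For Adrb3 in iWAT the difference was 1.51 ± 0.50 (edgeR adjusted p = 0.0907), and DESeq2 called it at an adjusted p of 0.0392, where it called 8.66% of genes. In iWAT the value was 0.77 ± 0.33 for Lipe and 0.63 ± 0.28 for Pnpla2, and in eWAT it was 0.72 ± 0.49 for Pnpla2. Leaving out iWAT C3Hn:C3Hmt HFD replicate 1 made 4 members pass in iWAT, so that count depends on a single library. The share of all genes called in that refit is not given here, so the 4 members have no background beside them. With the lymphocyte markers as a covariate 7.4% of all genes were called for this difference. The comparisons of diet within each genotype and between nuclear genomes on HFD share these libraries and are not independent.

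On chow Mgll was called lower with the C57 nucleus in all 3 tissues. The lane runs along with the nuclear genome on chow, as given below, and a lane effect was not separated from it. In muscle Mgll had 79.9, 89.7 and 102 CPM with the C57 nucleus (lowest, median, highest of 8) against 113, 133 and 195 CPM with the C3H nucleus, with no overlap. The log2 fold change, C57n minus C3Hn, was -0.65 ± 0.07 (edgeR adjusted p = 1.03e-06), on a background of 33.6% of 13735 genes. In muscle 6 of the 7 genes passed the filter on low counts, Adrb1 failing it, and 2 were called. In iWAT on chow Mgll had 715, 945 and 1361 CPM with C57n against 1743, 2418 and 2824 CPM with C3Hn, again with no overlap. Its value there was -1.20 ± 0.23 (edgeR adjusted p = 0.000887, background 11.7%). In eWAT on chow it was -1.16 ± 0.30 (edgeR adjusted p = 0.0118, background 15.1%), with 444 to 1426 CPM in C57n against 579 to 3410 CPM in C3Hn. The single overlapping C3Hn library was the epithelial C3Hn:C57mt replicate 2, and without the 6 epithelial libraries Mgll stood at -0.92 ± 0.15 (edgeR adjusted p = 4.58e-04).

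On HFD the Mgll difference between nuclear genomes was -0.50 ± 0.31 in eWAT (edgeR adjusted p = 0.311) and -0.58 ± 0.25 in iWAT (edgeR adjusted p = 0.11), neither called. Mgll had 1052, 1227 and 1394 CPM with C57n against 1244, 1832 and 2554 CPM with C3Hn in eWAT on HFD. With the run as a covariate the iWAT value was -0.83 ± 0.16 (edgeR adjusted p = 0.000775). With the adipocyte markers as a covariate the eWAT value on HFD was -0.97 ± 0.11 (edgeR adjusted p = 2.06e-06), and the iWAT value was also called lower (edgeR adjusted p = 9.93e-07). Without the 6 epithelial libraries the eWAT value of Mgll on HFD was -0.55 ± 0.13 (edgeR adjusted p = 0.00394). Every chow comparison of nuclear genomes runs along the lane as well, apart from 1 eWAT library, and the HFD libraries carry the same lane number within each of their runs. Reads were mapped to 1 reference genome, and how sequence differences of C3H alter the counts of Mgll or Adrb3 was not tested.

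Adrb3 was higher with the C57 nucleus on HFD, as the average over both mitochondrial genomes. In eWAT on HFD it had 150, 279.9 and 400.3 CPM with C57n against 18.8, 94.4 and 238 CPM with C3Hn (lowest, median, highest of 7), and the ranges overlapped. On the log2 scale the difference was 1.92 ± 0.44 (edgeR adjusted p = 0.00498, background 13.2%). In iWAT on HFD it had 127, 216 and 293 CPM with C57n against 7.46, 49.2 and 222 CPM with C3Hn, with a log2 fold change of 2.00 ± 0.39 (edgeR adjusted p = 0.000771, background 16.3%). With the sequencing run as a covariate these values were 1.95 ± 0.49 in eWAT (edgeR adjusted p = 0.0117) and 1.84 ± 0.44 in iWAT (edgeR adjusted p = 0.00471). The C3Hn average takes in C3Hn:C57mt, whose HFD value minus that of C3Hn:C3Hmt was -2.61 ± 0.66 in eWAT and -2.16 ± 0.58 in iWAT. Neither was called by edgeR. On the C57 nucleus the exchange values on HFD were 0.35 ± 0.60 and -0.05 ± 0.48. The nuclear difference between the wild types alone was not tested. On chow the Adrb3 values were 0.82 ± 0.42 in eWAT (edgeR adjusted p = 0.175) and 0.49 ± 0.34 in iWAT (edgeR adjusted p = 0.386). G0s2 on HFD lay the same way, at 0.91 ± 0.36 in eWAT (edgeR adjusted p = 0.104) and 0.77 ± 0.29 in iWAT (edgeR adjusted p = 0.0701), and DESeq2 called both (adjusted p of 0.0494 and 0.0443), with 18.8% and 20.8% of genes called.

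In muscle Adrb3 was called higher with C57n at 2.06 ± 0.62 on the log2 scale (edgeR adjusted p = 0.0165). The C57n libraries held 0.751, 0.753, 4.36 and 4.07 CPM (C57n:C3Hmt) and 0.823, 0.321, 4.48 and 1.15 CPM (C57n:C57mt), and the 8 C3Hn libraries 0.0747 to 1.04 CPM. The 3 libraries above 4 CPM, with 46 to 52 counts each, were all of the C57 nucleus. The call held in 15 of 16 refits that each left out 1 library, and without C57n:C57mt replicate 3 the value was 1.49 (adjusted p = 0.0646). Adipocyte markers summed to 521, 635 and 390 CPM in those 3 libraries, inside the range of 324 to 725 CPM over all 16 muscle libraries. Fabp4 made up most of this sum, with a muscle median of 389 CPM against 40.3 CPM for Adipoq. Adipoq ranged from 18.8 to 125 CPM in muscle, and the sum hardly reflects it. The part of adipocyte RNA in the muscle Adrb3 values was not tested.

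**Figure D4:**
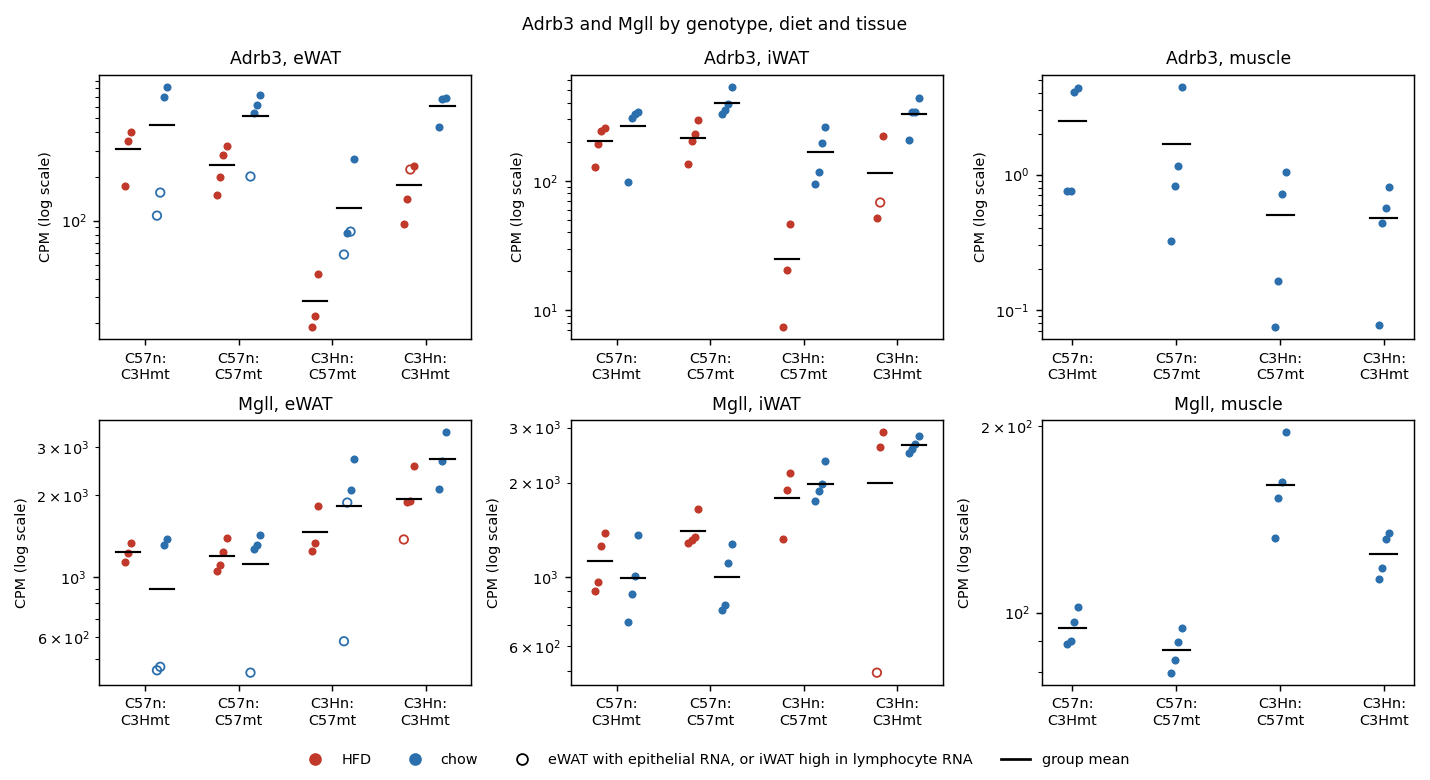
CPM of Adrb3 and Mgll (log axes) in every library by genotype, with the 2 lines of the C57 nucleus left of those of the C3H nucleus, by diet and tissue; lines are group means and open points the eWAT libraries with epithelial RNA and the iWAT library high in lymphocyte RNA. Mgll in muscle and in iWAT on chow shows no overlap between nuclear genomes, and Adrb3 is lowest in C3Hn:C57mt on HFD in both depots.

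The exchange of mitochondrial DNA was the comparison the study was built on. Over the 10 comparisons of an exchange line with the wild type of the same nucleus, 0 members were called by edgeR, and in 8 of them 0 genes at all; 0.0113% of genes were called in eWAT of C3Hn on HFD and 0.00728% in muscle of C3Hn. Members with an unadjusted p under 0.05 numbered 2 in each of the 2 eWAT comparisons of C3Hn, where 12.7% of genes on HFD and 12.5% on chow had one. There was 1 in iWAT of C3Hn on HFD (11.2% of genes), 1 in muscle of C57n (4.5% of genes) and 4 of 6 in muscle of C3Hn (7.44% of genes), and 0 in the other 5 comparisons. DESeq2 made 3 member calls in eWAT of C3Hn over both diets, where it called 2.91% of genes on HFD and 2.63% on chow. It made 1 in iWAT of C3Hn on HFD (0.22% of genes) and 0 in muscle (0.0364% of genes in C3Hn and 0.102% in C57n).

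These DESeq2 calls were Adrb3 and Adrb1 on the C3H nucleus. In eWAT on HFD Adrb3 had 43.3, 22.1 and 18.8 CPM in C3Hn:C57mt against 223, 141, 94.4 and 238 CPM in C3Hn:C3Hmt, with no overlap. Its difference was -2.61 ± 0.66 (edgeR adjusted p = 0.127), and DESeq2 gave -2.63 ± 0.58 (adjusted p = 0.000935). Macrophage markers summed to 1231 to 2493 CPM in the 3 exchange libraries and to 294 to 1450 CPM in the 4 wild-type libraries, and adipocyte markers to 8207 to 10686 CPM against 12032 to 28652 CPM. With adipocyte markers as a covariate the Adrb3 value was -1.92 ± 0.41 and was called (edgeR adjusted p = 0.00977). In that setting 10.7% of all genes were called, against 0.0113% in the original comparison. Without the epithelial libraries it was -2.47 ± 0.46 (edgeR adjusted p = 0.0262, background 2.32%).

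On chow in eWAT Adrb3 had 81.7, 58.6, 262.9 and 84.0 CPM in C3Hn:C57mt against 680, 435 and 693 CPM in C3Hn:C3Hmt, without overlap (-2.31 ± 0.61, edgeR adjusted p = 0.311, DESeq2 adjusted p = 0.00819). Of the 4 exchange libraries 2 were epithelial, at 58.6 and 84.0 CPM of Adrb3, and the other 2 also lay below the wild type. In iWAT on HFD Adrb3 had 7.46, 20.5 and 46.6 CPM in C3Hn:C57mt against 222, 51.7 and 68.1 CPM in C3Hn:C3Hmt, without overlap (-2.16 ± 0.58, edgeR adjusted p = 0.429, DESeq2 adjusted p = 0.0345). In iWAT on chow the groups overlapped, with 197, 262, 117 and 94.0 CPM in C3Hn:C57mt against 206, 343, 339 and 436 CPM in C3Hn:C3Hmt (-0.99 ± 0.48, edgeR adjusted p = 1). With the run as a covariate the HFD values of Adrb3 were -2.63 ± 0.68 in eWAT and -2.48 ± 0.65 in iWAT, neither called by edgeR (adjusted p of 0.165 and 0.45). The diet comparison of C3Hn:C57mt and these exchange comparisons use the same libraries. Adrb1 on chow in eWAT had 0.403, 0.329, 1.05 and 0.892 CPM in C3Hn:C57mt against 5.53, 0.495 and 3.88 CPM in C3Hn:C3Hmt (-2.30 ± 0.71, edgeR adjusted p = 0.311, DESeq2 adjusted p = 0.0473).

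On the C57 nucleus no Adrb3 value was called between mitochondrial genomes, and whether the exchange differed between nuclei was not tested. The log2 fold change of C57n:C3Hmt minus C57n:C57mt was -0.21 ± 0.56 on chow and 0.35 ± 0.60 on HFD in eWAT, and -0.60 ± 0.48 on chow and -0.05 ± 0.48 on HFD in iWAT. The SEs of about 0.5 leave a change of 1 on this scale within reach of each value. In muscle of C3Hn, Mgll had 163, 132, 195 and 153 CPM in C3Hn:C57mt against 113, 134, 118 and 132 CPM in C3Hn:C3Hmt (0.37 ± 0.09, edgeR adjusted p = 0.52). In muscle of C57n, Lipe had 64.6, 46.6, 63.8 and 41.0 CPM in C57n:C3Hmt against 36.5, 38.0, 41.2 and 43.1 CPM in C57n:C57mt (0.43 ± 0.13, edgeR adjusted p = 0.877). The difference in diet response between mitochondrial genomes was called for 0 genes in each of 4 tests by edgeR, and for 0 members by DESeq2, with 0 members at an unadjusted p under 0.05 in edgeR.

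The genes around the receptors were read from 3 further lists: 12 other receptors that gate lipolysis, 25 genes of cyclic AMP signalling and 13 lipid droplet genes, of which 12 were tested. In eWAT 1 other receptor was higher on HFD and 3 were lower of 12, with a list median of -0.13, below the background of 41.3%. Adra1a, an alpha-1 receptor, had 0.94 ± 0.19 (edgeR adjusted p = 5.96e-04), and the alpha-2 receptors, which couple to the inhibitory G protein and restrain lipolysis, were lower: Adra2b -1.39 ± 0.36, Adra2c -1.54 ± 0.53 and Adra2a -0.96 ± 0.37. These levels were low, with medians of 0.101 CPM on HFD and 0.281 CPM on chow for Adra2b, of 0.336 CPM on HFD and 0.721 CPM on chow for Adra2a, and of 0.259 CPM on HFD and 0.594 CPM on chow for Adra2c, whose highest chow library had 16.4 CPM. In iWAT 11 of the 12 were tested, Insr, the insulin receptor, was higher (0.32 ± 0.11, edgeR adjusted p = 0.0264) and Npr1, the receptor of natriuretic peptides, was lower (-0.37 ± 0.12, edgeR adjusted p = 0.0201). These 2 of 11 lay below the background of 37.6%, and the list median in iWAT was -0.05.

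Cyclic AMP genes were more often higher than lower on HFD: 10 higher and 1 lower of 25 in eWAT, with a list median of 0.37, and 9 higher and 3 lower of 25 in iWAT, with a median of 0.28. In eWAT the 4 with the smallest adjusted p were Creb1 (0.54 ± 0.06), a transcription factor that protein kinase A phosphorylates, Gnai3 (0.53 ± 0.07), an inhibitory G protein subunit, Pde3a (1.40 ± 0.23), a phosphodiesterase that degrades cyclic AMP, and Prkar1a (0.33 ± 0.06), a regulatory subunit of protein kinase A. The lower gene was Gnas (-0.25 ± 0.07, edgeR adjusted p = 0.00875), the stimulatory subunit that the beta-adrenergic receptors couple to. In iWAT the 4 were Gnai3 (0.57 ± 0.05), Prkar1a (0.31 ± 0.04), Prkar2b (0.69 ± 0.16), a regulatory subunit abundant in fat, and Gnai1 (0.75 ± 0.17), a further inhibitory subunit. The shares called, 11 of 25 and 12 of 25, lie near the background of 41.3% and 37.6%.

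Of the droplet genes, 2310016C08Rik (Hilpda, an inhibitor of Pnpla2) was higher on HFD in eWAT at 0.99 ± 0.18 (edgeR adjusted p = 2.38e-04) and in iWAT at 0.93 ± 0.31 (edgeR adjusted p = 0.023). M6prbp1 (Plin3, a droplet coat protein) was lower, at -0.24 ± 0.06 in eWAT (edgeR adjusted p = 0.00229) and -0.45 ± 0.11 in iWAT (edgeR adjusted p = 0.0026). In iWAT 1110057K04Rik (Ldah, a droplet hydrolase) was higher at 0.24 ± 0.09 (edgeR adjusted p = 0.0374). That made 1 higher and 1 lower of 12 in eWAT, with a list median of -0.19, and 2 higher and 1 lower of 12 in iWAT, with a median of -0.10. The shares called, 2 of 12 and 3 of 12, lie below the background of 41.3% and 37.6%. Perilipin 1, listed as Plin, which holds Abhd5 at the droplet in the unstimulated cell, had -0.34 ± 0.27 in eWAT (edgeR adjusted p = 0.318) and -0.37 ± 0.18 in iWAT (edgeR adjusted p = 0.101).

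Within groups the lipase genes varied together with the adipocyte markers. Over the deviations of 59 fat libraries from their group means, Pearson's r was 0.93 for Lipe and Mgll, 0.89 for Pnpla2 and Lipe, and 0.82 for Lipe and Abhd5. With the mean of the adipocyte markers, r was 0.94 for Lipe, 0.93 for Mgll, 0.92 for Pnpla2, 0.88 for Abhd5 and 0.79 for G0s2, against 0.57 for Adrb3 and 0.42 for Adrb1. These values describe libraries that share depots, animals and the same shift in tissue content, and the epithelial and lymphocyte libraries lie at the low end. Adrb1 also carries the counting noise of few counts.

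**Figure D5:**
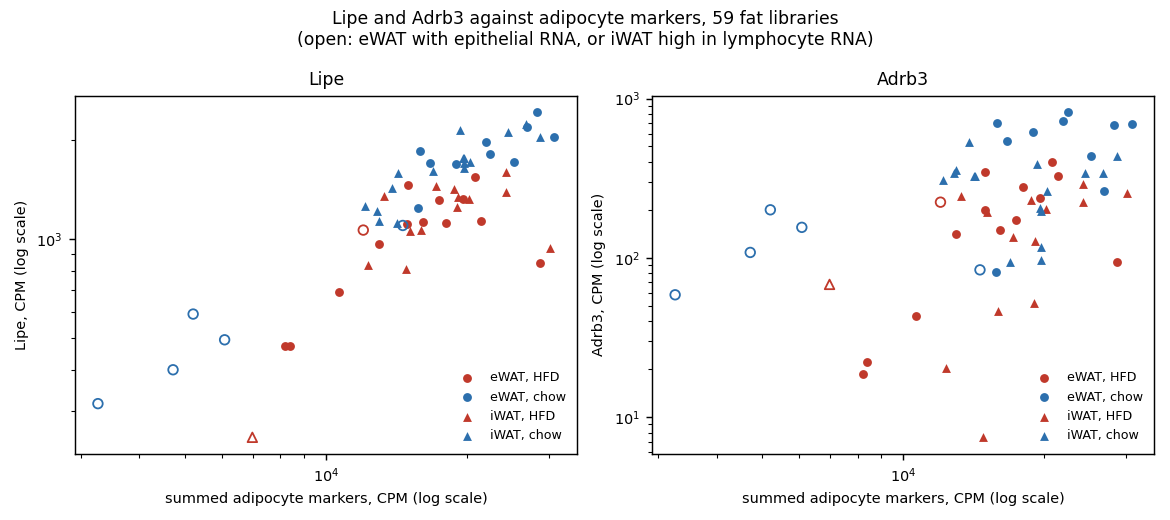
CPM of Lipe and of Adrb3 against the summed CPM of the adipocyte markers (log axes) in the 59 fat libraries, by depot and diet; open points are the eWAT libraries with epithelial RNA and the iWAT library high in lymphocyte RNA. Lipe follows the markers closely (r = 0.94 over deviations from group means) and Adrb3 less so (r = 0.57).

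Over the mean log2 CPM of the 16 fat groups, the gene most like Lipe was Plin (r = 0.97, and 0.98 over library deviations), followed by Rab34 (0.94) and Pnpla2 (0.94). Pnpla2 was nearest to Fars2 (0.96), Trap1 (0.95) and Poldip2 (0.94). Adrb3 was nearest to Lsm10 (0.97), Gm114 (0.94) and Phyhd1 (0.94), but over library deviations those values were 0.35, -0.29 and 0.68. Mgll was nearest to Rbp7 (0.95), Nxnl1 (0.95) and AK019984 (0.95), Abhd5 to Ipo9 (0.90), AW061290 (0.89) and Capn2 (0.88), and G0s2 to Amy1 (0.91), Dhdh (0.90) and Adhfe1 (0.90). Adrb1 was nearest to Polg (0.92), Npepl1 (0.91) and Banp (0.91), with 0.47, 0.38 and -0.03 over library deviations. The 16 group means share animals between depots, and these genes were the top 3 of all genes tested for each member.

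The deposited transcript tables split each gene's expected counts over annotated transcripts. For Adrb3 in eWAT on chow, the main listed transcript held 75.4% to 84.4% of the gene's counts in the C57n libraries and 67.1% to 72.5% in the C3Hn libraries, without overlap. On HFD in eWAT it held up to 85.4% with C57n and 64.1% to 73.4% with C3Hn, again without overlap. In iWAT on HFD the shares overlapped, at 80.0% to 91.6% with C57n and 74.5% to 89.6% with C3Hn. For Lipe the main transcript held a mean of 86.8% to 92.2% per group in iWAT and 76.8% to 81.7% per group in muscle. These splits are estimates made by the counting software, with no replicate test run on them.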

How the data were processed

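RNA-seq libraries of eWAT, iWAT and muscle were deposited as RSEM expected counts per gene and per transcript, per the file headers. Per the submitters' processing notes, RSEM, mm9 and DESeq2 1.10.1 were used, and per the series' design text the reads came from an Illumina HiSeq instrument and were mapped with the sequencing provider's own algorithm. The RSEM version and the annotation release are not stated in the labels or headers. Expected counts are not whole numbers for every gene (67.9% of chow and 68.1% of HFD values were whole) and were rounded. Run and lane were read from the library names in the labels, and the G+C percent and insert length of each library, another unit, were deposited with the libraries by the authors. The authors' normalized tables were not used.

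Library totals of 15.7 M to 31.5 M counts set the counting precision, and depth limits Adrb1 and muscle Adrb3 most. Groups were taken from the genotype, diet and tissue labels. Replicates carry different animal numbers, and p-values within a tissue measure the spread between these animals. Within each tissue (29 eWAT, 30 iWAT and 16 muscle libraries, all groups sharing 1 estimate of spread), genes passed edgeR's filterByExpr (minimum count 10, total 15, 70% of the smallest group), TMM scaling was applied, and contrasts were tested with edgeR 4.0.16's quasi-likelihood test with Benjamini-Hochberg adjustment over all genes tested and a threshold of 0.05 (R 4.3.3, limma 3.58.1). Tissues were compared in a joint fit of the 75 libraries, whose scaled library sizes also gave the CPM levels. That fit took libraries of the same animal as independent, so its p-values ignore the pairing. A fit with the animal as a block is given below. An SE is the log2 fold change divided by the square root of the F statistic. The mean diet comparison was also run on simulated counts with known changes. Those counts had the same spread for every gene and no differences of run, animal or tissue content. The simulation therefore does not test the effect of these.

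The 7 members were named in every comparison. For the other receptors, cyclic AMP genes and droplet genes, counts were given with the 4 smallest adjusted p-values among the genes called in each depot, and for likeness the 3 genes with the highest r over the 16 fat groups. Gnas and Plin were named after their values were seen. The members and lists were chosen with earlier results of these data known.

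Alternatives were DESeq2 1.42.0, RLE size factors, no filter on low counts, removal of the trend of each library on gene G+C percent and length (84.5% of eWAT and 84.3% of iWAT genes tested had a value), adipocyte markers or the run as a covariate, and leaving out each library. Leaving out the 6 epithelial libraries, the lymphocyte covariate and the run as a covariate in the genotype comparisons were chosen after seeing the data. Of the animals, 20 gave both depots. Over 10883 genes, the deviations of both depots of 1 animal had a median r of 0.30 (over 0.1 in 15 of 20), against -0.07 for different animals in 89 pairs.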

Additional observations from a re-analysis of the deposited data

Results flagged for a closer look

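In groups of 4 libraries, a library whose CPM stood apart from the other 3 by most of the group's range (Dixon's test) was found in 9 of 105 tests, 15 groups for each of the 7 genes. Chance gives about 1 in 20. Adrb3 stood high in eWAT of C3Hn:C57mt replicate 3 on chow at 262.9 CPM, against 58.6 to 84.0 CPM in the others. Adrb3 stood low in iWAT of C57n:C3Hmt replicate 1 on chow at 97.5 CPM, against 307 to 338 CPM. In that same library G0s2 stood high at 245 CPM, against 94.5 to 103 CPM. G0s2 also stood high in iWAT of C57n:C57mt replicate 4 on HFD (214 CPM) and of C57n:C57mt replicate 2 on chow (199 CPM). Mgll stood low in the epithelial eWAT library of C57n:C57mt on chow, replicate 3, at 444 CPM against 1268 to 1426 CPM, and high in iWAT of C57n:C57mt replicate 2 on HFD at 1652 CPM against 1286 to 1336 CPM. Pnpla2 stood high in muscle of C3Hn:C57mt replicate 3 at 589.6 CPM against 425 to 437 CPM, and low in iWAT of C3Hn:C3Hmt replicate 1 on chow at 2368 CPM against 2963 to 3034 CPM. No cause was tested for these values.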

How the results depend on the processing

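Of 218 values of single genes under alternatives other than leaving out 1 library, 189 kept direction and call, 8 lost and 13 gained the call and 8 changed sign; of the values that left out libraries, 657 kept both, 34 lost and 9 gained the call and 8 changed sign. The 7 members had main counts of 2 by diet in eWAT, 4 by diet in iWAT, 1 and 2 over single-genotype diet comparisons in eWAT and iWAT, 1 by nucleus in each depot and diet, and 0 by mtDNA exchange. Counts over single genotypes or over exchange comparisons are of calls, so a gene can count more than once. The cause of the changes below was not tested.

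In eWAT, members called by diet numbered 4 with DESeq2, 1 with the G+C and length trend removed, 5 with the adipocyte covariate and 6 without the epithelial libraries, with 47.3%, 32.5%, 47.6% and 43.6% of all genes called. Member calls over the 4 single-genotype comparisons numbered 3 with DESeq2, 0 with no filter or the trend removed, 7 with the adipocyte covariate and 12 without the epithelial libraries. The share of all genes called in a single genotype moved too: it was 1.67% to 17% in the original comparisons, 7.41% to 22.6% with DESeq2, 0.857% to 15% with no filter, 0.00669% to 11.3% with the trend removed, 3.34% to 28.9% with the adipocyte covariate and 2.78% to 18.4% without the epithelial libraries. By nucleus the members called numbered 2 (DESeq2), 3 (adipocyte) and 2 (without epithelial libraries) on chow, with 20.5%, 12.3% and 15.3% of all genes called. On HFD they numbered 2, 3 and 4, with 18.8%, 19% and 29.5% of all genes. Member calls over the 4 mtDNA exchange comparisons numbered 3, 2 and 3 in the same settings. The share of all genes called in those comparisons was 0.326% to 2.91%, 0% to 10.7% and 0% to 2.32%. Other receptors (4) fell to 2 with the trend removed, cyclic AMP genes (11) numbered 17 with the adipocyte covariate, and droplet genes (2) numbered 4 with DESeq2, 1 with the trend removed, 7 with the adipocyte covariate and 9 without the epithelial libraries.

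In iWAT, members called by diet numbered 2 with the trend removed (20% of all genes). Member calls over the 4 single-genotype comparisons numbered 5 with DESeq2, the run or the lymphocyte covariate, 6 with the adipocyte covariate, 1 with no filter and 0 with the trend removed. The share of all genes called was 4.88% to 16.7% in the original comparisons, 10.5% to 22.8% with DESeq2, 1.49% to 24.3% with the run, 12.9% to 20.6% with the lymphocyte covariate, 11.6% to 30.2% with the adipocyte covariate, 2.79% to 10.9% with no filter and 0.00702% to 5.33% with the trend removed. By nucleus the members called numbered 3 on chow with the run as a covariate, where 17.8% of all genes were called. On HFD they numbered 2 with DESeq2, the run, the adipocyte or the lymphocyte covariate, with 20.8%, 16.9%, 18.5% and 26.9% of all genes. DESeq2 called 1 member for diet by nucleus (8.66% of all genes) and 1 for mtDNA exchange (0.0416% to 0.22% of all genes per comparison). Other receptors (2) numbered 4 with the run, 0 with the trend removed and 5 with the adipocyte covariate, and droplet genes (3) numbered 5 with DESeq2 or the lymphocyte covariate, 6 with the run, 1 with the trend removed and 7 with the adipocyte covariate. The share of all genes called by diet was 40.7% with DESeq2, 39.9% with the lymphocyte covariate, 49.8% with the run and 54.3% with the adipocyte covariate. For eWAT minus iWAT on chow 1 member was called without the epithelial libraries, where 34.3% of all genes were.

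Leaving out 1 library gave 1 to 4 members by diet in eWAT and 4 to 5 in iWAT, 0 to 2 and 1 to 5 over single genotypes, 1 to 2 by nucleus in eWAT on either diet, 1 to 3 on chow and 1 to 2 on HFD in iWAT, 1 (without C57n:C57mt replicate 3) to 2 in muscle, and 0 to 4 (without C3Hn:C3Hmt HFD replicate 1) for diet by nucleus in iWAT. The 3 members on chow in iWAT were seen without C3Hn:C3Hmt HFD replicate 3. Other receptors numbered 2 to 4 and 1 to 5, cyclic AMP genes 9 to 14 and 11 to 16, and droplet genes 2 to 4 and 2 to 5, in eWAT and iWAT. The shares of all genes called in these refits are not given here. A change in a count can therefore not be told from a change in the calls of all genes.

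Signs changed, none of them of a value called in the original comparison: Abhd5 in eWAT without the epithelial libraries (-0.035), Mgll in eWAT with the trend removed (0.10) or the adipocyte covariate (0.089), G0s2 in eWAT (0.39 and 0.10) and in iWAT (0.18 and 0.0063) under the same settings, and Mgll in iWAT with the lymphocyte covariate (-0.23). Leaving out 1 library, Mgll ranged from -0.11 to 0.032 in eWAT and from -0.011 to 0.17 in iWAT, and G0s2 from -0.13 to 0.054 in eWAT, with positive values in eWAT without C57n:C3Hmt chow replicate 2 or C3Hn:C57mt chow replicate 3 for both genes and without C57n:C3Hmt chow replicate 3 or C3Hn:C3Hmt chow replicate 1 for Mgll (0.021 and 0.011), and negative ones of Mgll in iWAT without C3Hn:C3Hmt HFD replicate 1 or 2.

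With the animal as a replicate block in the tissue comparisons, 0 members were called between depots, 7 of 7 between muscle and iWAT and 6 of 6 tested between muscle and eWAT, where Adrb1 failed the filter, and no member's call changed. In these fits 18% of all genes were called between depots on chow and 28.3% on HFD. Between muscle and iWAT 85.3% of all genes were called, and between muscle and eWAT 78.3%. Tissue comparisons were refitted without each of 4 replicate numbers rather than each library. DESeq2 gave no adjusted p for Adrb3, Lipe and G0s2 in the C3Hn muscle exchange. Depth limits Adrb1, with at most 28 counts in an HFD library and 156 in a chow library of fat, and Adrb3 in muscle, with 1 to 52 counts.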
